A study of Mus musculus with 45 samples.

Results

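Bath application of NMDA for 1 h on top of an AP firing block was examined in 10 of the 45 libraries of the series, 5 labelled 1 h bicuculline + 1 h TTX and NMDA (TTX/NMDA) and 5 labelled 1 h bicuculline + 1 h TTX (TTX). The libraries were chosen by these treatment labels, and each TTX/NMDA library was set against the TTX library of the same culture preparation. All cultures were primary hippocampal cells of P0 C57BL/6N mice, grown with B27 and rat serum, given AraC on DIV 3 and treated on DIV 10 or 11 as the labels have it, with DIV 11 named for RNA-seq in the methods. Both groups received the GABA type A receptor antagonist Bic (50 µM) for 1 h to drive synchronous AP firing, and then the sodium channel blocker TTX (1 µM) for a further 1 h with Bic still present, with or without NMDA (30 µM). The 2 groups therefore share the Bic induction and the firing block, and the difference between them addresses what the study terms the active component of excitotoxic signaling. This is the long protocol (LP); a short protocol (SP) with 0.5 h of each step, 2 h of Bic, TBOA (a blocker of glutamate uptake) for 1 h after 1 h of Bic, and untreated controls give the reference levels below. Each condition holds 5 libraries, from preparations 1, 3, 6, 7 and 8.

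NMDA receptors are ligand-gated cation channels that pass calcium when glutamate binds while the membrane is depolarized. Calcium entering at synapses activates CaM kinases and ERK and, through CREB and SRF, a wave of immediate early genes that are followed by genes for synaptic proteins and growth factors. Bath-applied NMDA also reaches receptors outside synapses, whose prolonged activation is linked to CREB shut-off, calcium overload and cell death in hippocampal neurons.

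Poly(A) RNA was sequenced, and the total counted reads per library lay between 23895011 and 64680212 with TTX (median 38220221) and between 13467115 and 48077885 with TTX/NMDA (median 33539111). Of 54532 genes listed, 16399 had enough reads to be tested. All 8 neuron markers looked at were detected in every library, as were the astrocyte markers, so the cultures held neurons together with glia. In RNA from a whole well, fewer cells of a type and less RNA per cell cannot be told apart. Levels are given as CPM, the reads of a gene scaled to library size with TMM factors, and listed in the order of preparations 1, 3, 6, 7 and 8, and changes as log2 fold changes with their standard error (SE) from edgeR's quasi-likelihood test with preparation as a term, called at a Benjamini-Hochberg adjusted p below 0.05.

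NMDA on top of TTX raised 5510 genes (33.6% of those tested) and lowered 4674 (28.5%), so that 62.1% of the genes tested were called. The excess of raised over lowered genes was not kept under all processing choices, as given below. The median size of a called change was 0.40 on the log2 scale, and changes beyond 1 were few, with 396 genes raised (2.41%) and 253 lowered (1.54%). Of the called genes, 90.3% moved in the same direction in 5 of 5 preparations, against 60.6% of all genes tested. The 2 groups of libraries did not overlap for 4906 genes (29.9%).

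Among genes other than gene models, with a mean of at least 5 CPM in the higher group and a change in the same direction in 5 of 5 preparations, the largest rise belonged to Ccn1, which encodes a secreted matricellular protein and is a known target of SRF and YAP. Ccn1 (chr3:145646976-145649981, minus strand, GRCm38) stood at 8.96, 10.3, 8.23, 8.42 and 4.88 CPM with TTX and at 259, 274, 244, 208 and 149 CPM with TTX/NMDA. Every TTX library lay near the untreated control (mean 8.02 CPM), and the TTX/NMDA libraries lay around the level of 2 h of uninterrupted Bic (mean 209.8 CPM). The log2 fold change was 4.80, SE 0.059 (edgeR, adjusted p = 3.68e-19).

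Btg2, an antiproliferative early gene and one of the activity-regulated inhibitors of death, came next among the genes chosen in this way. Btg2 (chr1:134075170-134079120, minus strand) stood at 40.1, 48.1, 53.8, 28 and 31 CPM with TTX and at 247, 271, 251, 229 and 269.7 CPM with TTX/NMDA, a log2 fold change of 2.71, SE 0.10 (edgeR, adjusted p = 1.64e-12). Dusp1, a nuclear phosphatase that switches off MAP kinases, stood at 43.3, 37.9, 49.7, 29.7 and 26.1 CPM with TTX and at 181, 167, 175, 179 and 168 CPM with TTX/NMDA (log2 fold change 2.27, SE 0.093, edgeR, adjusted p = 7.74e-12). In both genes the 2 groups were far apart, and the TTX/NMDA libraries lay around the means of 2 h Bic, 243 CPM for Btg2 and 174 CPM for Dusp1. Klf4, a zinc finger transcription factor, behaved alike, at 14.2, 17.6, 18.9, 9.98 and 7.55 CPM with TTX and 65.9, 93.1, 71.2, 51.3 and 43.7 CPM with TTX/NMDA, without overlap (2.30, SE 0.071). The nuclear receptor Nr4a1 (chr15:101254269-101274795, plus strand) went from 219.8, 259, 339.8, 191 and 153 CPM to 552, 616, 668, 613 and 503 CPM (1.40, SE 0.080), again without overlap but below its mean of 901 CPM at 2 h Bic.

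The promoters of Btg2, Dusp1, Nr4a1 and Ccn1 are shown because these genes rose with long NMDA and were picked for holding the CREB binding element TGACGTCA, or its core TGACG, just upstream. The core is common and was no more frequent among raised genes, with TGACG in 29.5% of all promoters read, 26.3% of those of raised genes and 22.5% of those of genes raised by more than 1. The sequences are from RefSeq on GRCm38.p6 and hold the 250 bases before the RefSeq start of transcription, 5′ to 3′ on the strand of the gene. They cover chr1:134079156-134079405 (minus) for Btg2, chr17:26508473-26508722 (minus) for Dusp1, chr15:101266596-101266845 (plus) for Nr4a1 and chr3:145649986-145650235 (minus) for Ccn1. Capitals mark TGACG on either strand (CGTCA when it is on the other) and, where both overlap, the full TGACGTCA.
Btg2: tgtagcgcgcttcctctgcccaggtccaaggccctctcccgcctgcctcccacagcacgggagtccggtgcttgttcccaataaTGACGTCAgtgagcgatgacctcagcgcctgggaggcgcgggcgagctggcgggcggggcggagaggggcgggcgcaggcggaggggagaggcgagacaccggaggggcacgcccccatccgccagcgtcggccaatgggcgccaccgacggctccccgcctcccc
Dusp1: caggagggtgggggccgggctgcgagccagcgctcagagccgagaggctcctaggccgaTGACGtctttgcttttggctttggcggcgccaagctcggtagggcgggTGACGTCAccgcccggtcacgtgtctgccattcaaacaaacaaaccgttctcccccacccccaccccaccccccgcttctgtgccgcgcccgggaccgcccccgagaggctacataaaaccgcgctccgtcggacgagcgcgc
Nr4a1: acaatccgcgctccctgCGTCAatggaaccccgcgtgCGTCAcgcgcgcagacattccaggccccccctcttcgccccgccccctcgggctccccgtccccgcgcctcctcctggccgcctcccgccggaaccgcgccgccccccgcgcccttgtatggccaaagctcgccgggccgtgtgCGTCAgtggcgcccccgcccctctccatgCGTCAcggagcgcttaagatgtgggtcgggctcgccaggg
Ccn1: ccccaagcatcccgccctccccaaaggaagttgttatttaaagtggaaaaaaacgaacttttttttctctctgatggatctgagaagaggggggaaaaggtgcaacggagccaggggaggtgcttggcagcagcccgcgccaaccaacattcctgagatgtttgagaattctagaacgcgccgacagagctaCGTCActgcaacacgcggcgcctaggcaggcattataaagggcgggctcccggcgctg

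Btg2 and Dusp1 each carry the full palindrome, its first base 166 bases before the start in Btg2 and 143 in Dusp1, and Dusp1 holds a further TGACG 191 bases before the start. Nr4a1 carries 4 single copies of TGACG, all on the opposite strand, the nearest 40 bases before the start. Ccn1 carries a single copy at 58 bases. These matches are descriptions of the letters only.

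**Figure D1:**
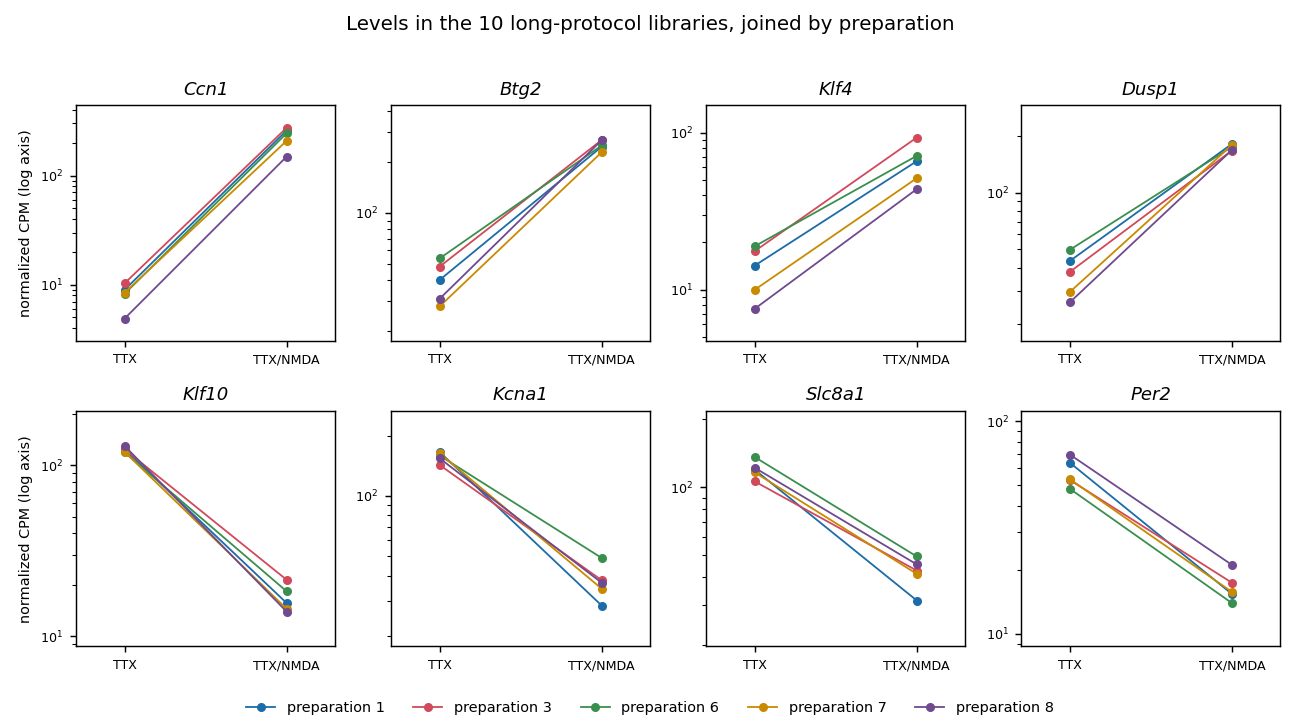
Levels in TMM-scaled CPM (log axis) of single genes in the 5 TTX and the 5 TTX/NMDA libraries of the long protocol, each line joining the 2 libraries of a preparation. Ccn1 climbs from 4.88 to 10.3 CPM to between 149 and 274 CPM, and Klf10 drops from between 119 and 130 CPM to between 13.9 and 21.4 CPM.

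Other raised genes fell into recognizable roles. Gadd45g, a stress-inducible partner of cell cycle kinases and another of the inhibitors of death, rose from 113, 111, 118, 85.3 and 103 CPM to 328, 298, 338, 318 and 249 CPM (1.54, SE 0.064). Trib1, a pseudokinase, rose by 1.74, and Tob1, a relative of Btg2 in mRNA deadenylation, by 1.50 on the log2 scale. Among genes that shape excitability, Gem, a small GTPase that inhibits voltage-gated calcium channels, went from 3.69, 4.04, 2.80, 3.81 and 2.51 CPM to 10.8, 10.4, 8.50, 11.2 and 8.09 CPM (1.54, SE 0.083). Kcnj2, an inward rectifier potassium channel, went from 7.07, 7.54, 9.12, 4.89 and 5.72 CPM to 16.1, 22.4, 23, 16.4 and 12.2 CPM (1.41, SE 0.086). Kcne4, an auxiliary subunit that inhibits potassium channels, rose from 1.54, 2.64, 1.20, 1.31 and 0.674 CPM to 9.56, 9.07, 5.74, 7.31 and 3.27 CPM (2.23, SE 0.13). For all 3 the groups were separate, although all 3 were at low levels. Zfp36l1, an mRNA decay factor, rose by 1.34, and Thbd, the thrombin receptor thrombomodulin, by 1.44. Thbd moved up in 5 of 5 preparations, yet its groups overlapped, since preparation 8 was low in both. Sox9, a transcription factor of glia and neural progenitors, rose by 1.41; markers of glia rose in the same libraries, as given below.

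The largest fall was that of Klf10, a TGF-beta-inducible repressor of the Klf family. Klf10 (chr15:38291463-38300706, minus strand) stood at 124, 124, 119, 120.2 and 130.2 CPM with TTX and at 15.6, 21.4, 18.3, 14.4 and 13.9 CPM with TTX/NMDA, a log2 fold change of -2.89, SE 0.079 (edgeR, adjusted p = 1.38e-13). The TTX libraries lay well above the means of the untreated control (25.2 CPM) and of 2 h Bic (29.2 CPM), and all 5 TTX/NMDA libraries lay below both. Zfp189, another zinc finger factor, had the same order of levels, with 12.2, 15.6, 15.3, 15.3 and 14.2 CPM in TTX, 4.13, 4.77, 4.68, 4.79 and 4.07 CPM in TTX/NMDA and 6.81 CPM on average in the control (-1.68, SE 0.073).

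Kcna1, the Kv1.1 potassium channel that restrains firing of axons, fell from 166, 143, 159, 163 and 154 CPM to 28.3, 37.9, 49, 34.4 and 36.8 CPM (chr6:126640397-126646384, minus strand; -2.09, SE 0.084, edgeR, adjusted p = 7.18e-12). Rnf217, a ubiquitin ligase that targets ferroportin, fell from 191, 182, 204, 194 and 199 CPM to 38.2, 52.1, 58.9, 45.5 and 42.4 CPM (-2.04, SE 0.069), close to its control mean of 43 CPM. Neither gene had overlapping groups. Per2, a core repressor of the circadian clock, fell from 63.8, 53, 48.1, 53.4 and 69.7 CPM to 15.4, 17.4, 14, 15.8 and 21.1 CPM (-1.77, SE 0.061). The netrin receptor Dcc and the guidance ligand Slit3 fell by 2.03 and 1.72 on the log2 scale, the matrix protease Adamts3 by 1.75, the polarity protein Pard6b by 1.99 and the centriole protein Stil by 1.84. The 15 largest falls also held Inhba (-2.16), Ankrd33b (-2.09), Homer1 (-2.01), Ptchd1 (-1.89) and Zdbf2 (-1.81).

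The means of the 2 groups were also placed among those of all 9 conditions. Of the 253 genes lowered by more than 1, 159 had their highest mean of all conditions with TTX in the long protocol. This was 62.8%, against 15.3% of all genes tested. In 184 (72.7%) the TTX/NMDA mean lay below the untreated control, against 48.2% of all genes tested. Of the 396 genes raised by more than 1, 366 (92.4%) had their highest mean with TTX/NMDA, against 32.4% of all genes tested. These ranks are a description only, since choosing genes by the difference between the 2 groups favours them. Ccn1 and Dusp1 were not among these, as both were higher at 1 h of Bic (means 329.9 and 217 CPM). Btg2, Tob1, Kcnj2, Dusp6 and Arc were also higher at 1 h of Bic, Btg2 with a mean of 353 against 253 CPM with TTX/NMDA. Klf4, Trib1 and Nr4a1 were higher at 2 h of Bic, Nr4a1 with a mean of 901 against 590 CPM.

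**Figure D2:**
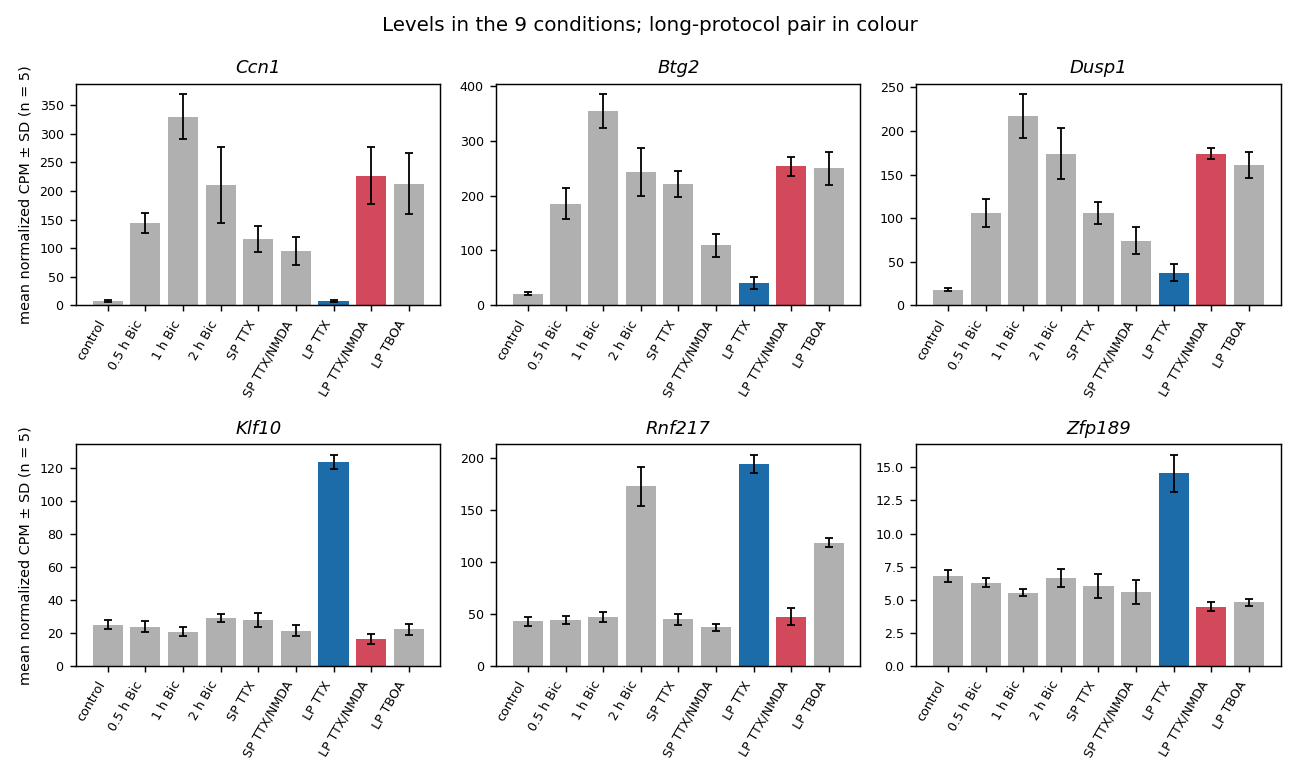
Bars give the mean level in TMM-scaled CPM (linear axis) of Ccn1, Btg2, Dusp1, Klf10, Rnf217 and Zfp189 in the 9 conditions of the series, with error bars of 1 SD over 5 libraries, the long-protocol TTX bar in blue and TTX/NMDA in red. Klf10 and Zfp189 peak with TTX in the long protocol, while Ccn1 has its lowest levels in the control and in that same condition.

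The short protocol measured NMDA on top of TTX in other libraries from the same preparations. It raised 931 genes (5.93% of 15705) and lowered 1617 (10.3%). Of 1616 genes lowered in the short protocol and tested in both, 1517 (93.9%) were also lowered in the long protocol, where they make up 32.7% of the lowered genes. Of 931 genes raised in the short protocol, 793 (85.2%) were also raised in the long one, 15.1% of the genes raised there. Of all 15667 genes tested in both, the long protocol lowered 4635 and raised 5248. The counts of the short protocol leaned on single preparations, with 283, 367, 1743, 424 and 507 genes raised when preparations 1, 3, 6, 7 and 8 were left out in turn. The genes raised in both protocols then numbered between 232 and 1461 and those lowered in both between 768 and 1960; without the preparation term they numbered 262 and 985.

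A small set of activity-induced genes changed sign between the protocols. Raised in the long and lowered in the short protocol were 35 genes. Their long minus short difference was called for each (9.85% of 16663 genes tested were higher and 15.1% lower in the long protocol), which the choice of the genes favours and from which nothing is read. All 35 were raised by 2 h of Bic alone, measured in other libraries (14.4% of genes tested were). The set includes Btg2, Klf4, Dusp1, Trib1, Tob1, Kcnj2, Nr4a1, Dusp6 and Arc. For Btg2, short NMDA lowered the mean from 221 to 109 CPM (-1.02, SE 0.068), and the long minus short difference was 3.68 on the log2 scale. For Kcnj2, the short protocol took the mean from 29.1 to 10.4 CPM (-1.49, SE 0.13), a difference between protocols of 2.90. Arc, the synaptic cytoskeleton protein, rose from 308, 261, 318, 170.2 and 224 CPM to 551, 552, 611, 461 and 639 CPM in the long protocol (1.17) and fell from a mean of 518 to 242 CPM in the short one (-1.10). Fbxo33 and Adamts1, picked after their values were seen, are 2 more of the set, with -1.85 and -1.40 against 0.55 and 0.48. Ccn1 was not in this set, since its short change of -0.29 was not called. Over the 35 genes the median change was 0.59 in the long and -0.65 in the short protocol. Between 28 and 38 genes were counted when 1 preparation was left out, and 21 without the preparation term, all 21 among the 35.

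Lowered in the long and raised in the short protocol were 20 genes. Of these, 8 carry Zfp symbols, such as Zfp85 (-0.81 in the long and 0.55 in the short protocol), while of all 364 Zfp genes tested 37.9% were lowered and 19.8% raised in the long protocol. Ccnj, a cyclin, fell from 14.1, 15.5, 11.9, 17.1 and 16.6 CPM to 5.54, 6.02, 5.03, 6.71 and 5.20 CPM in the long protocol (-1.40, SE 0.075) and rose in the short one (0.44, SE 0.073). Insm1, a zinc finger repressor of neuronal progenitors, fell by 1.31 in the long protocol and changed by 0.69 in the short one. These 2 genes had separate groups in the long protocol. The count of 20 dropped to 6 without the preparation term and ranged from 6 to 23 when 1 preparation was left out.

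**Figure D3:**
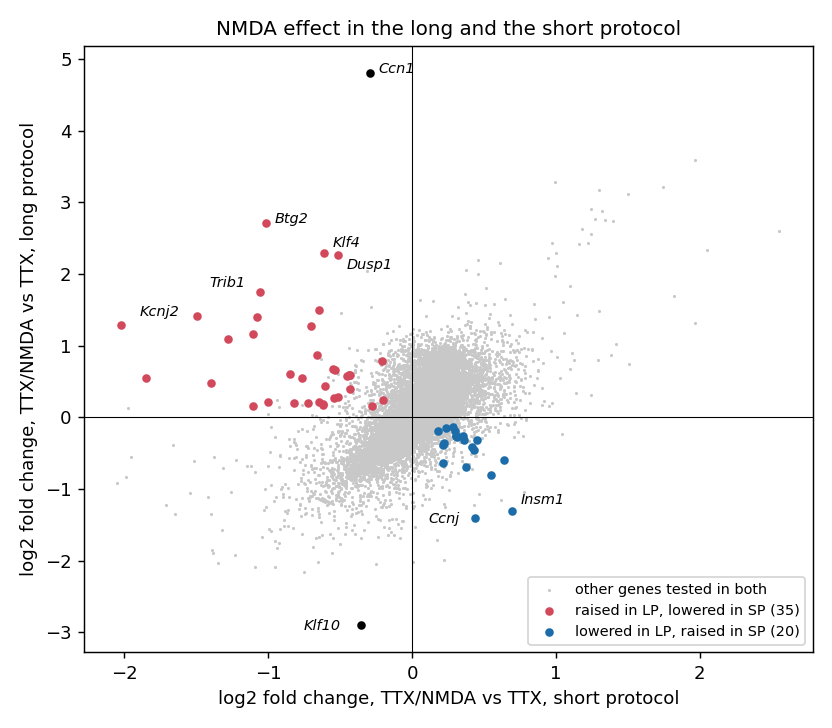
Log2 fold change by NMDA on top of TTX in the long protocol (y axis) against that in the short protocol (x axis), each point a gene tested in both. The 35 genes raised in the long and lowered in the short protocol are red and lie in the upper left, with Btg2 at 2.71 against -1.02, and the 20 of the opposite pattern are blue.

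The promoters of these 35 genes were read for a few motifs. RefSeq windows of 250 bases before to 50 after the start were available for 27 of them, 31 promoters in all, and for 11105 of all tested protein-coding genes (14280 promoters). The full TGACGTCA occurred in 7 of the 31 (22.6%), those of Arl4d, Btg2, Cbx8, Ccnl1, Dusp1, Maff and Nfkbid, against 2.91% of all promoters. TGACG on either strand, which the full element contains, occurred in 22 (71.0%) against 29.5%, the E-box CACGTG in 7 (22.6%) against 9.45%, and TATAAA in 5 (16.1%) against 7.35%. The CArG box bound by SRF was present in 1 (3.23%) against 1.34%. All motifs were looked for on both strands and without a test. All 35 genes were raised by 2 h of Bic, and promoters of other genes raised by Bic were not read as a set. What these shares owe to induction by Bic was therefore not tested. Promoters of the genes raised by more than 1 carried TGACGTCA in 3.12% and those of the genes lowered by more than 1 in 3.33%, next to the 2.91% of all.

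Immediate early genes of the same families went in different directions. In the AP-1 family (7 members), Fos (0.19) and Junb (0.22) were called raised, and Fosb (-0.56), Fosl1 (-0.83) and Fosl2 (-0.79) fell. The rises of Fos and Junb were seen in 4 of 5 preparations with overlapping groups, and neither call held without the preparation term (edgeR, adjusted p = 0.17 and 0.118). Of the Egr and Nab genes (6), none was raised, and Egr3 (-1.22) and the corepressors Nab1 (-0.26) and Nab2 (-0.32) fell. Among all genes tested the shares were 33.6% raised and 28.5% lowered. Nr4a2 went from 690.3, 690.2, 784, 655 and 691 CPM to 250.4, 426, 425, 309 and 306 CPM (-1.05, SE 0.077) and Nr4a3 fell by 1.04, in contrast to Nr4a1. Npas4 was called raised by 0.28, a call that was lost without the preparation term (edgeR, adjusted p = 0.0991).

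The Klf family of zinc finger factors (14 members) split as well, with Klf2 (0.94), Klf3 (0.55), Klf4 (2.30), Klf5 (0.87) and Klf6 (0.62) raised and 8 members lowered, led by Klf10 and Klf9 (-0.71). Of the MAP kinase feedback genes (16), Dusp1, Dusp6 (1.27), the Sprouty gene Spry1 (0.65) and Dusp5 (0.22) rose and 9 fell. Over all genes tested 33.6% were raised and 28.5% lowered, so calls in both directions are common in any list. Dusp6, a cytosolic ERK phosphatase, went from 69.7, 69.1, 104, 58.7 and 46.2 CPM to 152, 165, 177, 147 and 166 CPM without overlap. Of the 9 tested activity-regulated inhibitors of death Btg2, Gadd45g, Nr4a1, Npas4 and Bcl6 (0.17) were raised, and Inhba, Serpinb2 (-1.12), Atf3 (-0.60) and Gadd45b (-0.40) were lowered.

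**Figure D4:**
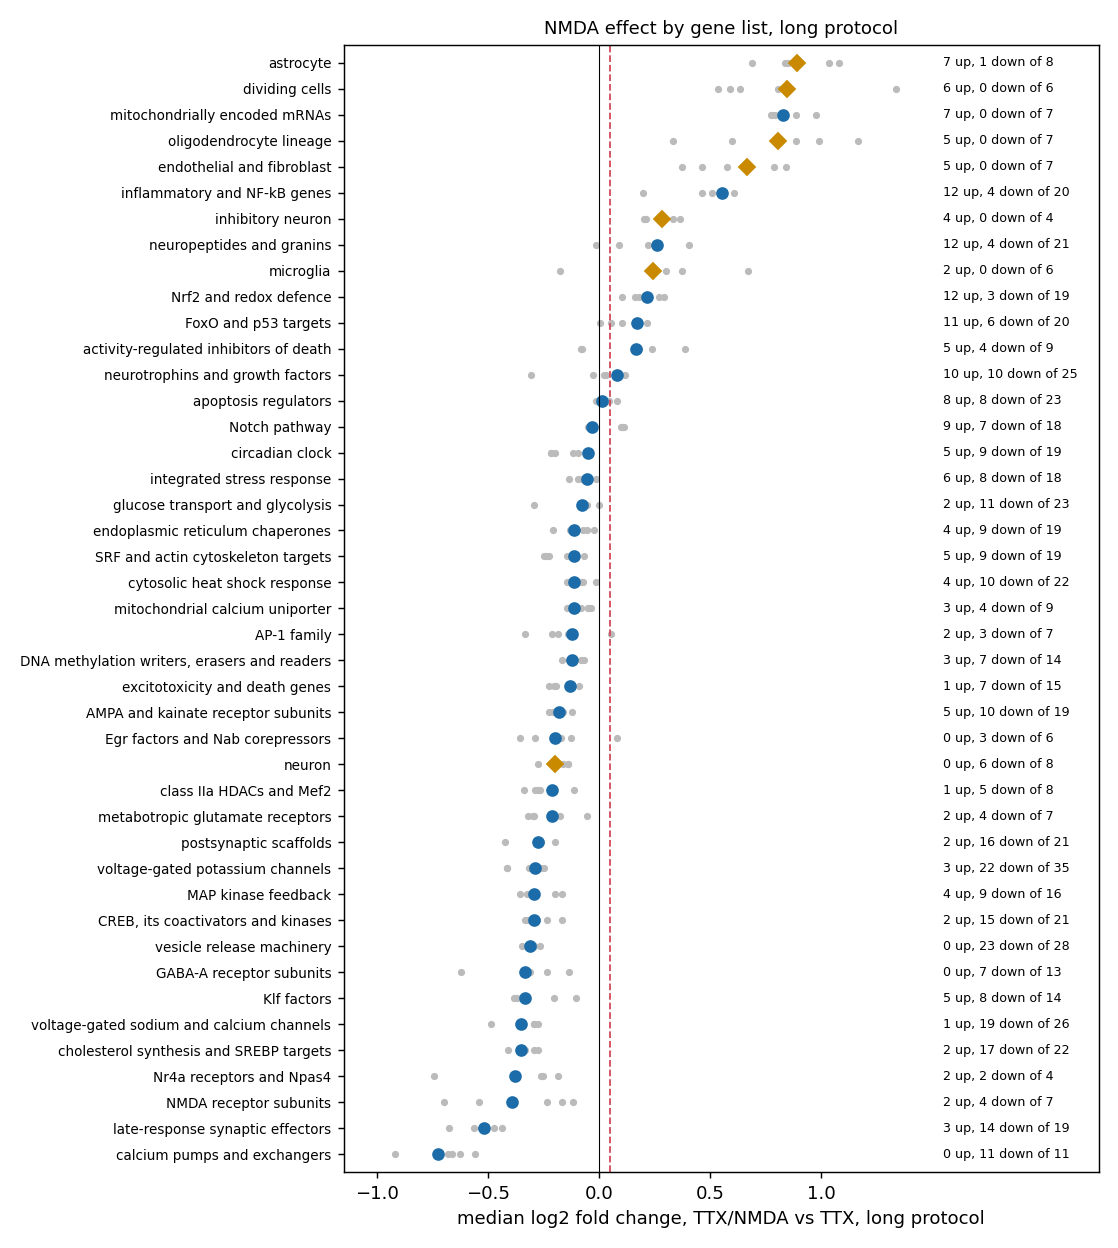
Median log2 fold change by NMDA on top of TTX in the long protocol for each gene list, with circles for pathway lists, diamonds for cell type marker lists, small grey points for the median of each single preparation and a dashed line at the median of all genes tested (0.05). Calcium pumps and exchangers lie lowest, at -0.73, and the astrocyte markers highest, at 0.89.

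Of 21 genes on the list of CREB, its coactivators and kinases 15 were lowered (28.5% of all genes tested were). Crtc3 (0.27) and Sik1 (0.20) were raised. Sik2, a kinase that keeps CRTC coactivators out of the nucleus, went from 65.9, 61.9, 65.6, 77 and 76.3 CPM to 21.2, 24.7, 25.5, 28.1 and 22.4 CPM (-1.50, SE 0.062). Camk2a, the alpha subunit of CaM kinase II, fell from 1308, 1010.2, 1119, 1037 and 1097 CPM to 535, 439, 513, 434 and 660.5 CPM (-1.11, SE 0.065). Both had groups that did not overlap, as did Camk4, the nuclear CaM kinase (-0.79), and the acetyltransferase Ep300 (-0.74). The call of Sik1 was lost without the preparation term (edgeR, adjusted p = 0.122).

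Calcium extrusion was the list with the lowest median, and all 11 tested pumps and exchangers fell (28.5% of all genes tested did), with a median of -0.73 in the long and -0.38 in the short protocol, where 9 of 11 fell. Slc8a1, the sodium-calcium exchanger NCX1, went from 119.6, 106, 136, 116 and 122 CPM to 31.4, 42.6, 49.3, 41.2 and 45.4 CPM (chr17:81373105-81738377, minus strand; -1.52, SE 0.068, edgeR, adjusted p = 2.24e-11). Its mean in the control was 88.9 CPM, above every TTX/NMDA library. The potassium-dependent exchangers Slc24a4 and Slc24a2 fell by 1.31 and 0.98, and the plasma membrane pumps Atp2b3 and Atp2b1 by 1.14 and 0.82. Within mitochondria, the uniporter list (9) was mixed. The sodium-calcium-lithium exchanger Slc8b1 (0.81), Smdt1 (0.43) and Micu2 (0.19) rose, and 4 genes fell, such as Mcur1 (-0.57), Micu3 (-0.24) and Letm1 (-0.11).

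Of the 7 NMDA receptor subunits, the widely expressed Grin2b (-0.85), Grin2a (-0.83) and the obligatory Grin1 (-0.58) fell, together with Grin3a (-0.20). Grin2b went from 737, 685, 877, 678 and 752 CPM to 393, 389.9, 434, 362 and 481 CPM, and Grin1 from 586, 499.9, 602, 544 and 509.6 CPM to 359, 335, 401, 387 and 346 CPM, both without overlap. Grin2c and Grin2d, at lower levels, were called raised (0.95 and 0.20) with overlapping groups. Of 19 AMPA and kainate receptor genes, 10 were lowered (28.5% of all genes), among them Shisa6 (-0.96) and Gria2 (-0.37), and Cacng2 (0.42), Cacng4 (0.28), Grik1 (0.25), Cacng3 (0.23) and Gria4 (0.13) were raised. The mGluR5 gene Grm5 fell by 0.77. Of 13 tested GABA type A receptor subunits none rose and 7 fell, led by Gabrb1 (-0.91).

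On the lists of voltage-gated channels, 22 of 35 genes for potassium channels and 19 of 26 for sodium and calcium channels were lowered. Of all genes tested 28.5% were. Besides Kcna1, the A-type subunit Kcna4 went from 58.5, 60.4, 66.6, 64.8 and 65.3 CPM to 16.4, 19.5, 24.2, 18.9 and 22.6 CPM (-1.64, SE 0.058), and Kcng3 and the M-current subunit Kcnq5 fell by 1.63 and 0.96. Kcns3 (0.43), Kcnip1 (0.26) and Kcnip3 (0.16) were called raised, with overlapping groups. The sodium and calcium channel list also holds the channel inhibitor Gem, the single gene on it that was raised. The R-type and L-type channel subunits Cacna1e and Cacna1c fell by 0.99 and 0.81 and the sodium channel Scn2a by 0.68.

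At synapses, 23 of 28 genes of the vesicle release machinery fell and none rose (28.5% and 33.6% of all genes did). Slc17a7, the vesicular glutamate transporter VGLUT1, went from 1139.8, 851, 903, 869 and 991 CPM to 557, 459, 578, 457 and 661 CPM (-0.81, SE 0.059) without overlap, and Sv2b and the active zone scaffold Bsn fell by 1.07 and 0.70. Of 21 postsynaptic scaffold and adhesion genes 16 fell, such as Nlgn1 (-0.97) and Dlg2 (-0.86), and Nlgn3 (0.42) and Nrxn3 (0.16) were raised. Of 19 late-response synaptic effectors 14 fell, such as the pentraxins Nptx1 (-1.67) and Nptx2 (-1.10) and the Ras activator Rasgrp1 (-1.17), and Arc, Sorcs1 (0.55) and Rgs2 (0.14) were raised.

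Secreted factors were divided. Among 21 neuropeptide and granin genes 12 rose (33.6% of all genes did), such as Npy (0.58), and 4 fell, the convertases Pcsk1 (-1.68) and Pcsk2 (-0.51) and the granins Scg2 (-0.66) and Vgf (-0.28). Pcsk1, which cleaves prohormones, went from 229, 216, 286, 275 and 279.8 CPM to 58.9, 87.6, 100.3, 76.7 and 80.1 CPM, without overlap. Shares nearer to those of all genes (33.6% and 28.5%) were seen for neurotrophins and growth factors, of which 10 of 25 rose, such as Igf2 (1.21) and Tgfb1 (0.92), and 10 fell, such as Bdnf (-1.30) and Pdgfb (-1.11).

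Of 22 cholesterol synthesis and SREBP target genes 17 fell (28.5% of all genes did), among them the sterol carrier Stard4, from 282, 385, 435, 370.0 and 243 CPM to 151, 214, 220.5, 187 and 139 CPM (-0.90, SE 0.045), and the isomerase Idi1 (-0.76). Srebf1 (0.83) and Pmvk (0.15) were raised. The median of the list was -0.35 in the long and -0.03 in the short protocol, where 1 of 22 fell. Of 23 glucose transport and glycolysis genes 11 fell, such as the neuronal glucose transporter Slc2a3 (-0.95), and Aldoc (0.78) and Ldhb (0.34) rose. In the circadian clock (19), Per2, Cry2 (-0.81), Per1 (-0.70) and 6 others fell, and Rorb (0.94), Bhlhe41 (0.72), Dbp (0.54), Hlf (0.32) and Rora (0.26) rose.

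Among death and stress genes, apoptosis regulators and the integrated stress response were raised about as often as all genes tested (33.6% raised, 28.5% lowered). Of 23 apoptosis regulators 8 rose, such as Casp8 (0.93), Bax (0.53) and Bbc3 (0.41), and 8 fell, such as the BH3-only gene Hrk (-0.59). Of 15 excitotoxicity genes 7 fell, such as Nos1 (-0.68) and Clca1 (-1.46), and Trpm7 (0.13) was called raised, a call that was lost without preparation 1, 3, 6 or 8, and with DESeq2, the other scaling or no preparation term. In the integrated stress response 6 of 18 rose and 8 fell, led by the kinase Eif2ak3 (-0.94). Of the 22 heat shock genes the chaperone partners Bag3 (1.01) and Hspb8 (0.80), together with Hspe1 (0.40) and Hsf1 (0.17), rose, and 10 fell, such as Hspa1b (-0.79). The redox list leaned upward, with 12 of 19 genes raised (33.6% of all genes were), led by Nfe2l2, the NRF2 gene (0.84), and Gpx1 (0.66), and Gclc (-0.38), Sod2 (-0.15) and Txnrd1 (-0.11) lowered. Of 20 inflammatory and NF-kB genes 12 rose (33.6% of all genes did), such as Lif (1.35), Ier3 (1.14) and Csf1 (0.95), and Tnfaip3 (-1.17), Ptgs2 (-0.92), Nfkb1 (-0.68) and Nfkbie (-0.67) fell.

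Transcripts of the mitochondrial genome rose together. All 7 tested mitochondrially encoded mRNAs were raised (33.6% of all genes tested were), with a median of 0.83. A further 6 did not pass the filter. The complex I subunit mt-Nd4 went from 451, 549, 572, 579 and 389 CPM to 1047, 1041, 1294, 1124 and 807 CPM (1.07, SE 0.049), mt-Cytb rose by 0.92 and mt-Nd1 by 0.90. As a share of all counted reads, all mitochondrially encoded mRNAs listed made up 0.657% ± 0.0861 with TTX and 1.27% ± 0.149 with TTX/NMDA (SD, n = 5), higher in 5 of 5 preparations. The exact sign-flip permutation test over preparations gave p = 0.063 (two-sided), the smallest it allows with 5 pairs.

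Markers of several other cell types were raised in the same libraries (33.6% of all genes were). Raised were 7 of 8 astrocyte markers, such as Slc1a3 (0.93), with only Slc1a2 lowered (-0.33). Raised were also 5 of 7 tested oligodendrocyte lineage markers, such as Olig2 (1.28), Olig1 (0.92), Pdgfra (0.86) and Cspg4 (0.80). Of 6 microglia markers 2 were raised, such as C1qa (0.58), close to the share of all genes, and the median of this list was -0.18 in preparation 3. Of 7 endothelial and fibroblast markers Col1a1 (0.92), Col1a2 (0.90), Lum (0.78), Pdgfrb (0.66) and Dcn (0.31) rose. All 6 markers of dividing cells rose, such as Mki67 (0.84). The 4 inhibitory neuron markers rose by less, such as Slc32a1 by 0.33, Gad1 by 0.24 and Gad2 by 0.13, and 6 of 8 neuron markers fell, led by Map2 (-0.57). The summed astrocyte markers made up between 0.0925% and 0.14% of the reads with TTX and between 0.125% and 0.216% with TTX/NMDA, and the neuron markers between 0.858% and 0.899% and between 0.784% and 0.832%. The summed shares were 0.00975% to 0.0161% and 0.0171% to 0.0338% for the oligodendrocyte lineage, 0.0022% to 0.00249% and 0.0032% to 0.00403% for microglia, and 0.00689% to 0.0145% and 0.00992% to 0.0234% for endothelial cells and fibroblasts. No defining marker was at 0 in all libraries, but Cldn5 of endothelial cells summed to 4 reads over the 5 TTX libraries and to 5 over the TTX/NMDA libraries. The Notch pathway moved in the same libraries, with 9 of 18 genes raised, such as Notch1 (0.99), Heyl (0.99) and Jag1 (0.91), and 7 lowered, led by Hes5 (-1.53). The call of Heyl was lost without preparation 3, 6, 7 or 8, with DESeq2 and without the preparation term. The part of these markers in the changes of Sox9, the Notch, redox and inflammatory genes and the neuronal lists was not tested.

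Some calls of the genes named here rested on single preparations or on the preparation term. Calls were lost without preparation 1 for Gria4, Kcnip3, Letm1, Pmvk, Trpm7 and Txnrd1. Without preparation 3 they were lost for Bcl6, Dusp5, Gad2, Gria4, Heyl, Letm1, Penk, Rgs2, Trpm7 and Txnrd1, and without preparation 6 for Gad2, Gria4, Heyl, Junb, Letm1, Penk, Trpm7 and Txnrd1. Without preparation 7 the calls of Bcl6, Dusp5, Heyl, Junb, Kcnip3, Penk, Pmvk and Txnrd1 were lost, and without preparation 8 those of Bcl6, Gria4, Heyl, Trpm7 and Txnrd1. Without the preparation term all of these 13 lost the call, as did Bbc3, Cacng3, Col1a2, Fgd4, Fos, Gad1, Grik1, Grin2d, Grin3a, Hsf1, Igf2, Micu2, Nab1, Npas4, Npy, Nrxn3, Pank3, Serpinb2, Sik1, Ttr, Vgf and Zfp266.

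Genes induced by firing and genes lowered by TBOA were followed in the long NMDA comparison, with 2 h Bic against control and TBOA against 2 h Bic sharing no library with it. Of 2193 genes raised by 2 h Bic and tested in both, 1085 (49.5%) were lowered by long NMDA and 583 (26.6%) raised, with a median of -0.14 against 0.05 for all genes. Of all 15263 genes tested in both, long NMDA lowered 4624 and raised 5099. The 1085 ranged from 775 to 1097 when 1 preparation was left out and came to 615 without the preparation term, and the 583 ranged from 331, without preparation 7, to 769 and came to 197. TBOA lowered 348 genes (2.23%) and raised 69 (0.442%). Of the lowered ones 315 (90.5%) were also lowered by long NMDA and 9 raised, the opioid precursor Penk (0.26 against -0.82 with TBOA) among them. Of the 69 raised by TBOA, 52 were raised by long NMDA, and Zfp266, Pank3, Fgd4 and Ralgps2 were lowered, with log2 fold changes between -0.32 and -0.15. Long NMDA lowered 4641 and raised 5214 of all 15602 genes tested in this comparison and in that of TBOA. Of the 253 genes lowered by more than 1 with long NMDA, 98 were lowered by TBOA. The TBOA counts rested on single preparations, with 112 to 619 genes lowered and 8 to 305 raised when 1 was left out, and with 97 and 7 without the preparation term. The genes lowered by both then numbered between 105 and 499, and 93 without that term, and the 52 raised by both between 4 and 163, and 5.

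Change by NMDA also followed the length of genes. Over 12785 protein-coding genes with a mean of at least 1 CPM, the shortest decile by genomic span (up to 5.14 kb) had a median log2 fold change of 0.22, with 59.8% raised and 12% lowered, and the longest (over 151 kb) a median of -0.21, with 17.9% raised and 57.2% lowered. The medians fell from each decile to the next, and the longest decile was below 0 in each of the 5 preparations. Across these genes, which are not independent replicates and share libraries, Spearman's rho was -0.30 with span and -0.37 with exon length, and -0.32 with span in the short protocol. For 2 h Bic the medians of the same shortest and longest deciles were 0.01 and 0.08. Of 2207 non-coding or pseudogene models 612 were raised (27.7%) and 276 lowered (12.5%). Both shares were below those of all genes tested (33.6% and 28.5%). Of the 320 of these models that lie inside a protein-coding gene on the same strand, 143 were raised (44.7%) and 45 lowered (14.1%). Models with Gm or Rik symbols were ranked apart. They needed a call, a mean of at least 5 CPM in the higher group and 1 direction in 5 of 5 preparations. Among them A230103L15Rik rose most, from 1.71, 2.52, 2.13, 2.29 and 3.26 CPM to 15.8, 18.8, 12.3, 14.2 and 18.1 CPM (2.73, SE 0.10). Gm47135 (1.80) and 1700016P03Rik (1.72) followed, and the lowest were Gm10010 (-1.51), 6530402F18Rik (-1.19) and M5C1000I18Rik (-1.17). Reads of models inside a gene on its strand cannot be told apart from unspliced reads of that gene.

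**Figure D5:**
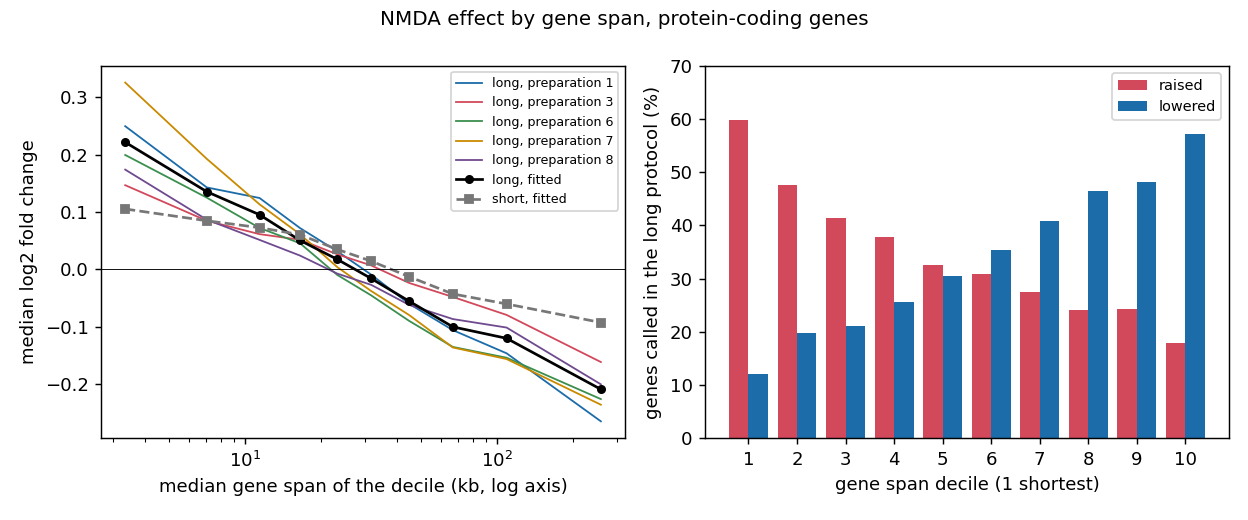
Left, median log2 fold change by NMDA on top of TTX for deciles of protein-coding genes against their median genomic span in kb (log axis), with thin lines for single preparations of the long protocol, black for its fit and dashed grey for the short protocol. Right, the percentage of each decile raised (red) and lowered (blue). The long-protocol medians run from 0.22 in the shortest to -0.21 in the longest decile.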

How the data were processed

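Raw read counts per gene were deposited for 45 poly(A) libraries, 10 of which enter the long NMDA comparison. According to the methods and the submitters' processing notes, the authors made these counts from single-end, strand-specific reads (NEBNext Ultra II directional, NextSeq 500) with bcl2fastq 2.20.0.422, STAR 2.5.4b on GRCm38 with an Ensembl annotation, and featureCounts 1.6.5, leaving out reads that mapped or overlapped more than once. Every column of the table matched a library. Related gene copies and overlapping genes on the same strand are therefore undercounted.

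Counts were tested with edgeR 4.0.16 (R 4.3.3, limma 3.58.1), TMM scaling, edgeR's default filter on low counts, and culture preparation as a term, 5 against 5 libraries, and adjusted by Benjamini-Hochberg over all genes tested (threshold 0.05, two-sided). The short protocol, 2 h Bic against control and TBOA against 2 h Bic were fitted alike, each on its own 10 libraries, and the long minus short difference on 20. Libraries of the same preparation deviated together from their group means (correlations 0.42 to 0.742 over 13592 genes, mean -0.138 between preparations), so the preparation numbers pair the samples, as the labels state. No 2 libraries were identical. On data simulated for this comparison with 16399 genes, 76% of genes changed by 0.5 and 94.9% of those changed by 1 on the log2 scale were called with the right sign. Only 100 and 99 genes were changed there, up and down alike, against 62.1% of genes called in the data. Recovery at so large a share was not tried. DESeq2 1.42.0, other scaling and filters, fits without the preparation term, and leaving out each preparation were tried. The study used DESeq2 on all genes with at least 1 read and no preparation term.

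Named genes were the 15 largest and 15 smallest changes that went the same way in 5 of 5 preparations with a mean of at least 5 CPM in the higher group, gene models apart (the 3 largest and 3 smallest), list members, the largest differences between protocols, and the 3 most variable changes. The comparison, the members and the gene lists were chosen with earlier results of these data known. Gene coordinates are those of GENCODE on GRCm38, promoters those of RefSeq on GRCm38.p6. Promoters of some named genes were not analysed here, and some genes that the rule covers are not reported here.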

Additional observations from a re-analysis of the deposited data

Results flagged for a closer look

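The effect of NMDA on top of TTX differed between the long and the short protocol, in edgeR's test of the difference itself, for 140 of 197 named genes, with a higher log2 change in the long protocol for 71 and a lower one for 69. Of all 16663 genes tested for this difference, 9.85% were higher and 15.1% lower in the long protocol. The values below are long minus short differences of the log2 fold change, all with an adjusted p below 0.05. Many of these genes were named for their size in the long protocol, which the difference shares, and the protocols differ in the length of both steps, which cannot be told apart. Among early genes the difference was 5.07 for Ccn1, 3.68 for Btg2, 2.87 for Klf4, 2.77 for Trib1, 2.74 for Dusp1, 2.43 for Nr4a1, 2.38 for Fbxo33, 2.21 for Arc, 2.13 for Tob1, 1.93 for Dusp6, 1.86 for Adamts1 and 1.8 for Gadd45g. Further early and activity-regulated genes gave 1.19 for Dusp5, 1.15 for Fosl1, 1.11 for Ptgs2, 0.89 for Sik1, 0.87 for Atf3, 0.83 for Junb, 0.79 for Fosb, 0.78 for Fos, 0.78 for Npas4, 0.56 for Spry1, 0.48 for Egr3, 0.48 for Nr4a2, 0.42 for Gadd45b, -0.31 for Nab1 and 0.27 for Rgs2. For channels and signalling proteins that were higher in the long protocol it was 2.9 for Kcnj2, 1.29 for Kcne4, 1.23 for Gem, 1.22 for Grin2c, 0.97 for Lif, 0.95 for Zfp36l1, 0.87 for Thbd, 0.81 for Csf1 and 0.8 for Ier3. The other Klf factors and clock genes gave -2.53 for Klf10, -1.27 for Per2, 1.04 for Klf2, 1.01 for Klf5, 1.0 for Rorb, 0.9 for Klf6, 0.58 for Bhlhe41, -0.55 for Cry2, 0.46 for Klf3 and 0.44 for Dbp.

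Glial and other non-neuronal genes gave -1.32 for Hes5, 1.3 for Sox9, 1.03 for Ttr, 1.02 for Olig2, 0.76 for Olig1, 0.72 for Slc1a3, 0.7 for Notch1, 0.65 for Col1a1, 0.64 for Pdgfra, 0.63 for Col1a2, 0.55 for Lum, 0.54 for C1qa, 0.48 for Cspg4 and 0.46 for Jag1. Mitochondrial, redox, metabolic and stress genes gave 0.95 for Bag3, -0.86 for Eif2ak3, 0.75 for Aldoc, 0.74 for Hspb8, 0.66 for Nfe2l2, 0.65 for Slc8b1, 0.63 for Srebf1, 0.49 for mt-Nd1, 0.45 for mt-Nd4, -0.43 for Mcur1, 0.39 for Gpx1, -0.38 for Nos1, 0.36 for mt-Cytb, -0.34 for Gclc, 0.27 for Bax and 0.23 for Hspe1. Lipid and glucose genes gave -0.7 for Stard4, -0.64 for Slc2a3 and -0.55 for Idi1, and NF-kB genes -0.98 for Tnfaip3, -0.57 for Nfkb1 and -0.4 for Nfkbie. The gene models gave 1.34 for A230103L15Rik, 1.33 for 1700016P03Rik, 1.29 for Gm47135, -0.64 for 6530402F18Rik, -0.63 for Gm10010 and -0.59 for M5C1000I18Rik.

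Regulators and other cellular genes that were lower in the long protocol gave -2.24 for Pard6b, -2.04 for Insm1, -1.84 for Ccnj, -1.8 for Rnf217, -1.62 for Zfp189, -1.4 for Zfp85, -1.35 for Ptchd1, -1.14 for Ankrd33b, -1.12 for Zdbf2, -1.12 for Sik2, -1.08 for Pim1, -0.84 for Adamts3, -0.55 for Ep300, -0.46 for Camk4, -0.41 for Camk2a and -0.25 for Map2. Secreted and guidance genes gave -1.42 for Inhba, -1.13 for Pcsk1, -0.8 for Slit3, -0.7 for Dcc, -0.7 for Pdgfb, -0.35 for Pcsk2 and -0.34 for Scg2. Channels, receptors and calcium transporters gave -1.02 for Kcna4, -1.0 for Kcna1, -0.89 for Kcng3, -0.77 for Slc24a4, -0.66 for Slc8a1, -0.54 for Atp2b3, -0.53 for Cacna1e, -0.51 for Grin2a, -0.51 for Grin2b, -0.47 for Slc24a2, -0.44 for Kcnq5, -0.44 for Atp2b1, -0.41 for Gabrb1, -0.38 for Grin1, -0.37 for Grm5, -0.34 for Shisa6, -0.33 for Cacna1c, -0.26 for Scn2a and -0.16 for Grin3a. Synaptic genes gave -1.36 for Homer1, -1.03 for Nptx1, -0.68 for Rasgrp1, -0.6 for Sv2b, -0.52 for Nptx2, -0.51 for Dlg2, -0.43 for Slc17a7, -0.39 for Nlgn1, 0.32 for Sorcs1 and -0.27 for Bsn.

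In 14 of 414 groups of 5 libraries 1 library stood apart from the others, where chance gives about 1 in 20. In preparation 1 with TTX this was Hlf at 23 CPM (highest; the others 17.4 to 18.3), Hspa1b at 14.7 CPM (highest; the others 6.07 to 8.41) and Slc24a4 at 16.2 CPM (highest; the others 12.5 to 13.5). In preparation 3 with TTX this was Klf2 at 1.47 CPM (highest; the others 0.648 to 0.729). In preparation 6 with TTX this was Kcns3 at 7.07 CPM (highest; the others 4.02 to 4.89), Npy at 78.5 CPM (highest; the others 21.7 to 35), Nr4a2 at 784 CPM (highest; the others 655 to 691), Nrxn3 at 291 CPM (highest; the others 236 to 247) and Scg2 at 788 CPM (highest; the others 584 to 617). In preparation 6 with TTX/NMDA this was Sod2 at 202 CPM (highest; the others 187 to 191). In preparation 7 with TTX this was Atf3 at 121 CPM (lowest; the others 162 to 178). In preparation 8 with TTX this was Ptgs2 at 36.4 CPM (lowest; the others 78.9 to 94.1). In preparation 8 with TTX/NMDA this was Eif2ak3 at 45.5 CPM (highest; the others 31 to 33.9) and Serpinb2 at 1.76 CPM (highest; the others 0.228 to 0.478).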

How the results depend on the processing

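In the long NMDA comparison the counts of raised and lowered genes stayed within 1.5 times the reported ones under all alternatives tried, with 4800 to 5133 genes raised and 4258 to 4506 lowered when 1 preparation was left out and 4090 and 3736 without the preparation block. The number raised by more than 1 grew to 746 with all genes of at least 1 read, to 882 with these and no block, and to 653 with DESeq2 on these and no block, since more genes at low counts were tested. It was 363 to 481 with 1 preparation left out. The excess of raised over lowered genes did not hold in all fits. DESeq2 with the block called 4374 genes raised and 4521 lowered. With all genes of at least 1 read and no block, edgeR gave 3807 and 3861, and DESeq2 gave 3757 and 4015. Medians of the gene lists were refitted only without the block, with all genes of at least 1 read and the block, and with the other scaling. Library shares were recomputed only with 1 preparation left out. In these refits both moved by less than their spread over preparations. Of the refits of 197 named genes under the alternatives none changed direction, 2201 kept the call or its absence and 163 lost the call, most of them in the 3 fits without the block, which lost 27, 35 and 37.

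The other comparisons depended more on the block. Without it 345 genes rose and 1063 fell in the short protocol (308 and 1071 with all genes of at least 1 read). For the difference between protocols the numbers were 323 and 926 (253 and 647), for TBOA 7 and 97 (17 and 174), and 1273 genes rose with 2 h Bic (1311 rising and 1478 falling). With the block and all genes of at least 1 read, TBOA had 355 and 705, and DESeq2 called 589 raised in the short protocol. Leaving out each preparation gave 283 to 1743 raised and 827 to 2136 lowered in the short protocol, 1019 to 1600 and 1315 to 2056 for the difference, 1436 to 2564 and 1612 to 2640 for 2 h Bic, and 8 to 305 and 112 to 619 for TBOA. The causes were not tested.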

Other observations

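Zfp genes, a large group of zinc finger proteins, were looked at after 8 of them turned up among the 20 genes lowered in the long and raised in the short protocol. Over the 364 tested, the median log2 change was -0.40 with 2 h Bic, -0.08 with NMDA in the long and 0.06 in the short protocol, and 138 (37.9%) were lowered and 72 (19.8%) raised in the long protocol, against 28.5% and 33.6% of all genes tested.

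The least uniform changes among the named genes were those of Ttr, Pim1 and Dsp. Ttr, the transthyretin of choroid plexus, stood at 9.13, 0.596, 0.222, 14.1 and 0.351 CPM with TTX and at 16.5, 2.28, 0.567, 18.7 and 0.44 CPM with TTX/NMDA, so that preparations 1 and 7 were far above the others in both groups. The kinase gene Pim1 fell in 5 of 5 preparations by a log2 change between -1.56 and -0.35, and the desmosome gene Dsp by one between -1.71 and -0.43.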
